A study of Mus musculus with 8 samples.

Results

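Sperm nuclei are packed by a small set of highly basic proteins, and the 7 genes examined here encode proteins of that set or lie in the same gene cluster: the transition proteins Tnp1 and Tnp2, the protamines Prm1 and Prm2, the cluster gene Prm3, and the spermatid linker histones H1fnt and Hils1. They were taken by symbol from the deposited gene table, where 7 of 19276 entries carry these names, and all 7 had reads in all 8 libraries. In elongating spermatids, histones are removed from DNA, transition proteins take their place for a time, and protamines then replace the transition proteins and condense the nucleus. The mRNAs of transition proteins and protamines are transcribed in round spermatids and stored before they are translated. H1fnt and Hils1 are linker histone variants found in spermatids, where they bind DNA while the nucleus is remodelled.

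The study sequenced RNA from C57BL/6 mice aged 6 weeks whose Rnf17 genotype was homozygous or heterozygous. RNF17 is made in germ cells and carries Tudor domains, which bind methylated arginine. The 4 groups had 2 libraries each: homozygous RNF17 immunoprecipitate (IP), heterozygous RNF17 IP, homozygous testis and heterozygous testis. The IPs were made from testis lysate with RNF17 1774 antibody, and the testis libraries used no antibody. No wild-type group was analysed here, so even the heterozygous animals carried 1 altered allele, and the labels do not describe the allele further. Whether replicate libraries derive from different animals is not stated in the labels, so a p-value here reflects library-to-library spread and that spread may be technical.

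Reads assigned to genes ranged between 5661754 and 50575649 per library, and levels are given as CPM, read counts scaled to a common library size over the 8 libraries. Rnf17 itself had 213 and 392 CPM in homozygous RNF17 IPs, against 1261 and 1187 CPM in heterozygous RNF17 IPs. It had 50.2 and 97.5 CPM in homozygous testes, against 507 and 551 CPM in heterozygous testes. Rnf17 reads were therefore lower in every homozygous library than in every heterozygous library of the same kind, though not at 0. The 2 heterozygous testis libraries stood apart from each other: the level of the 7 genes in replicate 2 was between 1.94 times (H1fnt) and 11.9 times (Prm3) that in replicate 1.

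The bases just before the start sites are shown for 5 genes: the protamines, Prm3 and the transition proteins. The linker histones are not shown but are included in the motif counts that follow. Each stretch is the 120 bases that precede the RefSeq start site in build GRCm38.p6, 5′ to 3′ on the gene's strand, which is the minus strand for all 5. The deposited reads were processed on another build, mm9, so these coordinates do not apply to the count tables. Capitals mark matches to TGANNTCA or, on either strand, to TATAA.
Prm1 (chr16:10796824-10796943): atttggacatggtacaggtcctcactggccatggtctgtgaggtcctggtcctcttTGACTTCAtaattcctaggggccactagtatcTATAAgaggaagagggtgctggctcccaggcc
Prm2 (chr16:10792106-10792225): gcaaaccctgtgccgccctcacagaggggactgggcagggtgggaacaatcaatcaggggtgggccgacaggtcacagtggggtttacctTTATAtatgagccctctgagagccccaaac
Prm3 (chr16:10790915-10791034): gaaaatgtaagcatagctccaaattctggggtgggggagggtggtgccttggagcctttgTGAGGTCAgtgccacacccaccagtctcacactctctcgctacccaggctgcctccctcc
Tnp1 (chr1:73015900-73016019): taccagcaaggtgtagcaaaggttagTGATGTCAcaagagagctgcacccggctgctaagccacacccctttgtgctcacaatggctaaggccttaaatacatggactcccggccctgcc
Tnp2 (chr16:10788656-10788775): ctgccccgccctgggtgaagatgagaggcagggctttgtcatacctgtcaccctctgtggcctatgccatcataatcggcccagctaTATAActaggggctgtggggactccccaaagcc

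TGACGTCA is the full cyclic AMP response element, the sequence bound by the CREM and CREB family of transcription factors, and CREM is an activator of spermatid genes. All 7 genes matched a RefSeq promoter window of 300 bases, H1fnt under its newer symbol H1f7. No window of the 7 held TGACGTCA on either strand, which 1.79% of 32851 RefSeq windows of the same length held. The looser TGANNTCA, which reads alike on both strands and includes TGACGTCA, was in 4 of the 7 windows and in 14.1% of all windows. Its first base lay 64 bases before the start of Prm1, 60 before that of Prm3, 94 before that of Tnp1 and 7 before that of Hils1. TATAA, searched on both strands, was in 3 of the 7 windows and in 24.9% of all windows, beginning 32 bases before the start of Prm1, 30 before that of Prm2 (on the reverse strand) and 33 before that of Tnp2. These matches describe letters in a window and were not tested as binding sites.

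In RNA recovered with the antibody against RNF17, all 7 genes fell in homozygotes relative to heterozygotes. Prm1, Prm2, Tnp1 and Tnp2 fell to at most 1.03% of the heterozygous mean, while Prm3, H1fnt and Hils1 kept between 11.6% and 27.2% of it. By edgeR's quasi-likelihood test with Benjamini-Hochberg adjustment, 7 of 7 were called lower at an adjusted p under 0.05, where 30.1% of the 13427 genes tested were called in either direction and 17.7% were called lower. Levels of the 2 groups did not overlap for 7 of 7 genes, where 32.2% of all genes tested were lower without overlap. The median log2 fold change was -6.67 over the 7 genes and -0.03 over all genes tested. In bulk RNA, fewer cells of a type and less RNA per cell cannot be told apart. In an IP, less recovery with the antibody cannot be told apart from them by this comparison either.

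**Figure D1:**
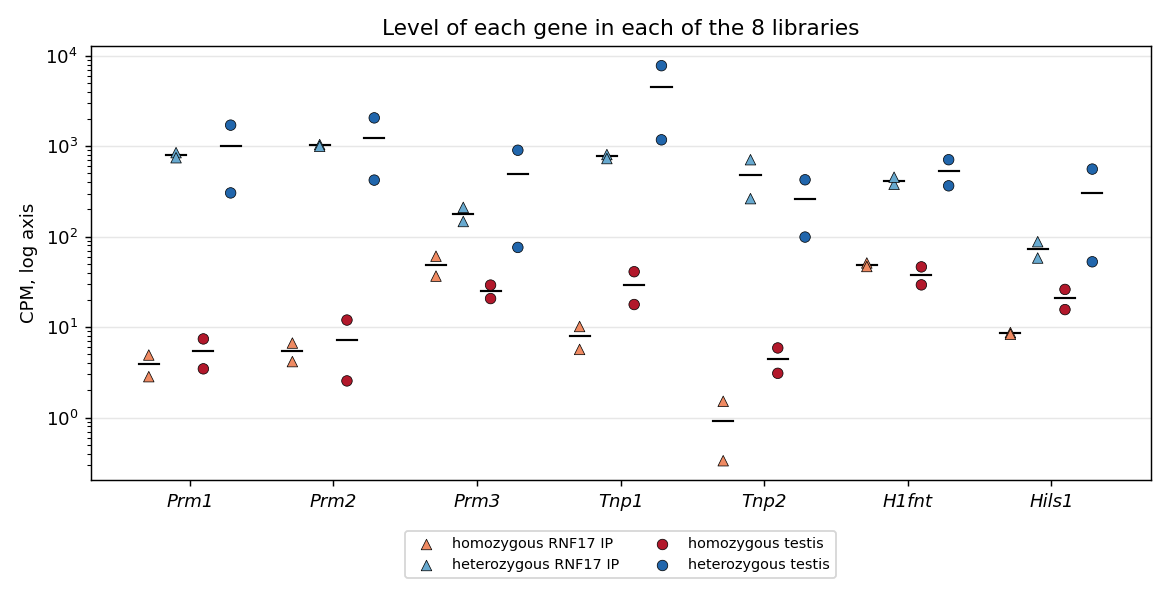
Level of each gene in each library, in CPM on a log axis; triangles are RNF17 IPs, circles are testes, red shades homozygous and blue shades heterozygous, and black bars are the means of 2 libraries. Homozygous points lie below heterozygous points for all 7 genes in both kinds of RNA, and the 2 heterozygous testis points are far apart for Prm3 and Hils1.

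Among the transition proteins, Tnp1, the more abundant of them in testis, had 5.67 and 10.2 CPM in homozygous RNF17 IPs, against 810 and 731 CPM in heterozygous RNF17 IPs. The fit gave a log2 fold change of -6.68 with an SE of 0.30 (edgeR adjusted p = 3.28e-07), and the homozygous mean was 1.03% of the heterozygous mean. Tnp2, the other transition protein, had 1.51 and 0.333 CPM in homozygous RNF17 IPs, against 710 and 264 CPM in heterozygous RNF17 IPs. Both groups of Tnp2 libraries were themselves uneven, but the lowest heterozygous library was 174 times the highest homozygous library.

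The Tnp2 value in homozygotes rested on 8 and 2 reads, against 7598 and 1665 reads in heterozygous RNF17 IPs. Pooled over libraries, the homozygous level was 0.163% of the heterozygous level, with an exact 95% interval between 0.078% and 0.299% that covers counting error only. The fit gave a log2 fold change of -9.15 with an SE of 0.62 (edgeR adjusted p = 1.97e-06). It was -10.50 without homozygous RNF17 IP replicate 1 and -8.26 without heterozygous RNF17 IP replicate 1, so its size depended on which library was left out.

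Of the protamines, Prm1 had 4.91 and 2.83 CPM in homozygous RNF17 IPs, against 850 and 747 CPM in heterozygous RNF17 IPs, a log2 fold change of -7.78 (SE 0.31, edgeR adjusted p = 1.34e-07). Prm2, made as a precursor that is trimmed on DNA, had 4.16 and 6.67 CPM in homozygous RNF17 IPs, against 1044 and 999 CPM in heterozygous RNF17 IPs. This was a log2 fold change of -7.63 (SE 0.30; edgeR adjusted p = 1.34e-07). The lowest heterozygous library was 152 times the highest homozygous library for Prm1 and 149.9 times for Prm2, and replicates of a group lay close together by comparison.

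Prm3 lies between Prm2 and Tnp2 but encodes an acidic protein, described in mouse as cytoplasmic. It had 36.7 and 60.8 CPM in homozygous RNF17 IPs, against 147 and 211 CPM in heterozygous RNF17 IPs. Its log2 fold change of -1.96 (SE 0.27, edgeR adjusted p = 2.80e-04) was the smallest of the 7, and its groups were separated by a factor of 2.42. The other 3 genes of the cluster had values of -7.63, -7.78 and -9.15, and the difference between Prm3 and these genes was not tested.

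Of the linker histones, H1fnt, needed in mouse for condensation of the spermatid nucleus, had 51.2 and 46.8 CPM in homozygous RNF17 IPs, against 380 and 455 CPM in heterozygous RNF17 IPs. Its change on the log2 scale was -3.17 (SE 0.21; edgeR adjusted p = 1.97e-06). Hils1, a linker histone of elongating spermatids, had 8.69 and 8.33 CPM in homozygous RNF17 IPs, against 88.1 and 58.1 CPM in heterozygous RNF17 IPs. For Hils1 it was -3.19 (SE 0.28; edgeR adjusted p = 1.01e-05), close to that of H1fnt at a lower level. Hils1 overlaps Sgca on the opposite strand, Prm1 overlaps an antisense gene and a pseudogene, and Tnp1 overlaps an antisense gene in the reference annotation. How the authors' counting treated strand is not given in the sources used here, so reads of these partners cannot be told apart; Sgca had between 2.65 and 4.96 CPM in the 8 libraries.

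In whole testis, the same 7 genes had lower levels in both homozygous libraries than in both heterozygous libraries, which held for 19.7% of the 14332 genes tested. None passed edgeR's test: 0 of 7 were called, with adjusted p between 0.133 and 0.244, and edgeR called 0% of all genes. Without adjustment, edgeR gave p under 0.05 for 7 of 7 genes and for 10.1% of all genes tested. DESeq2 called 7 of 7 lower, where it called 4.95% of all genes in either direction and 4.78% lower. The heterozygous libraries differed from each other by large factors, and leaving out any of the 4 libraries gave between 5 and 7 calls by edgeR among the 7 genes, in fits where the lone library of a group was assumed to vary like the other group. The calls without homozygous replicate 1 or without heterozygous replicate 2 were Prm1, Prm2, Tnp1, Tnp2 and H1fnt; without homozygous replicate 2 they were Prm1, Prm2, Prm3, Tnp1 and Tnp2; without heterozygous replicate 1 they were all 7. Over all genes edgeR called 1.18% without homozygous replicate 1, 0.519% without homozygous replicate 2, 8.23% without heterozygous replicate 1 and 2.82% without heterozygous replicate 2. With no filter on low counts edgeR called 6 of the 7 genes, all but Hils1, and 1.98% of the 18236 genes then tested.

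Tnp1 had 41.0 and 17.8 CPM in homozygous testes, against 1178 and 7779.7 CPM in heterozygous testes. The log2 fold change was -7.27 (SE 1.28), with an adjusted p of 0.133 by edgeR and 2.09e-14 by DESeq2. Tnp2 had 5.88 and 3.08 CPM in homozygous testes, against 99.0 and 426 CPM in heterozygous testes, a log2 fold change of -5.90 (SE 0.96; adjusted p = 0.133 by edgeR and 4.32e-11 by DESeq2). The homozygous means of Tnp1 and Tnp2 were 0.656% and 1.71% of the heterozygous means. The size of both folds depended on 1 library: without heterozygous testis replicate 2 the log2 fold change was -5.33 for Tnp1 and -4.49 for Tnp2, and without heterozygous testis replicate 1 it was -8.08 for Tnp1 and -6.62 for Tnp2.

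Prm1 had 7.40 and 3.46 CPM in homozygous testes, against 305 and 1712 CPM in heterozygous testes. Its log2 fold change was -7.56 (SE 1.17; adjusted p = 0.133 by edgeR and 1.83e-16 by DESeq2). Prm2 had 12.0 and 2.54 CPM in homozygous testes, against 422 and 2059.8 CPM in heterozygous testes, with a log2 fold change of -7.45 (SE 1.30; adjusted p = 0.133 by edgeR and 4.44e-14 by DESeq2). Without heterozygous testis replicate 2 the values were -5.84 for Prm1 and -5.90 for Prm2. The lowest values with a library left out were -8.35 for Prm1, without heterozygous testis replicate 1, and -8.82 for Prm2, without homozygous testis replicate 1. The lower heterozygous library was 41.2 times the higher homozygous library for Prm1 and 35.3 times for Prm2.

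Prm3 had 20.7 and 29.2 CPM in homozygous testes, against 76.1 and 903.5 CPM in heterozygous testes. Its groups were separated by a factor of 2.61, less than the factor of 11.9 between the heterozygous libraries. The log2 fold change was -4.30 (SE 1.16; adjusted p = 0.216 by edgeR and 1.07e-04 by DESeq2), and it was -1.60 without heterozygous testis replicate 2.

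H1fnt had 46.4 and 29.3 CPM in homozygous testes, against 365 and 710 CPM in heterozygous testes, the closest heterozygous libraries of the 7 genes. Its log2 fold change was -3.84 (SE 0.67; adjusted p = 0.133 by edgeR and 8.55e-07 by DESeq2), and with a library left out it ranged between -4.26, without heterozygous testis replicate 1, and -3.27, without heterozygous testis replicate 2. Hils1 had 15.6 and 26.1 CPM in homozygous testes, against 52.8 and 559 CPM in heterozygous testes. Its log2 fold change was -3.88 (SE 1.11; adjusted p = 0.244 by edgeR and 6.32e-04 by DESeq2), and -1.33 without heterozygous testis replicate 2. Hils1 groups were 2.02-fold apart at their nearest libraries, the narrowest gap of the 7 in testis.

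**Figure D2:**
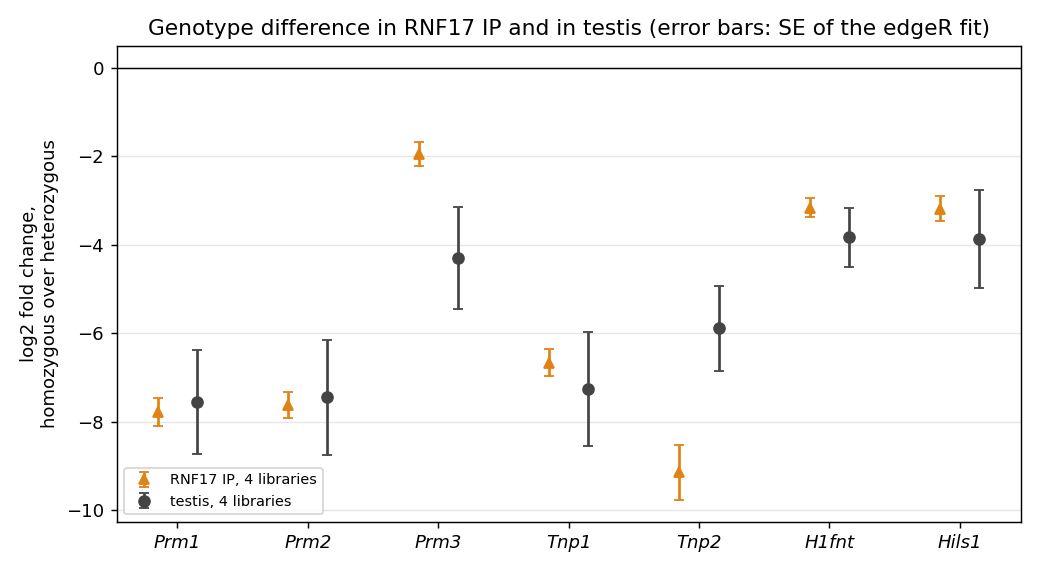
Log2 fold change, homozygous over heterozygous, of each gene in RNF17 IP (triangles) and in testis (circles). Bars are the SE computed from edgeR's F statistic, and each fit used 4 libraries. All values are below 0, the testis errors are the wider ones, and Prm3 and Tnp2 are the genes whose values in the 2 kinds of RNA lie farthest apart.

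For testis, the authors' deposited table of expression differences lists 5 of the 7 genes among its 734 rows, of which 595 have an adjusted p under 0.05. In the authors' deposited table the log2 fold change was -4.51 for Prm1, -4.14 for Prm2, -4.23 for Tnp1, -3.88 for Tnp2 and -2.91 for H1fnt. The log2 ratio of the group means given in the authors' deposited table was -7.58 for Prm1, -7.46 for Prm2, -7.29 for Tnp1, -5.91 for Tnp2 and -3.85 for H1fnt, so the fold changes listed in the authors' deposited table are smaller in size than the ratios of its means. Adjusted p in the authors' deposited table ran between 1.42e-11 for Prm1 and 3.65e-06 for H1fnt. Prm3 and Hils1, the genes with the least separated testis groups here, have no row in it.

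RNA recovered with the antibody was next compared with testis RNA of the same genotype. In homozygotes, edgeR called 0 of the 7 genes, where it called 3.28% of the 13334 genes tested. Its unadjusted p was under 0.05 for 4 of 7 genes, Prm3, Tnp1, Tnp2 and Hils1, and for 22.7% of all genes. DESeq2 called Tnp1 alone of the 6 genes to which it gave an adjusted p, and 10% of all genes. Tnp2 was among 1551 genes that had no adjusted p by DESeq2. The transition proteins had the largest differences: the log2 fold change, IP over testis, was -1.89 for Tnp1 (SE 0.54, edgeR adjusted p = 0.0737) and -2.29 for Tnp2 (SE 0.80, edgeR adjusted p = 0.124). It was 0.96 for Prm3 (SE 0.41, edgeR adjusted p = 0.193) and -1.30 for Hils1 (SE 0.47, edgeR adjusted p = 0.131). Prm1, Prm2 and H1fnt had values between -0.48 and 0.37. The Tnp2 value rested on 8 and 2 reads in the IPs and ranged between -3.70, without homozygous RNF17 IP replicate 1, and -1.54, without homozygous RNF17 IP replicate 2. Without homozygous testis replicate 1 the values were -1.18 for Tnp1, -1.78 for Tnp2, 0.73 for Prm3 and -1.63 for Hils1. Without homozygous testis replicate 2 they were -2.45 for Tnp1, -2.77 for Tnp2, 1.15 for Prm3 and -0.96 for Hils1.

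In heterozygotes, edgeR called 0 of the 7 genes and 0% of the 13562 genes tested. Its unadjusted p was under 0.05 for Tnp1 alone of the 7 and for 18.1% of all genes, and DESeq2 called Tnp1 alone of the 7 (adjusted p = 0.0179) and 4.45% of all genes. Tnp1 had a log2 fold change, IP over testis, of -2.46 (SE 0.84, edgeR adjusted p = 0.251), and both heterozygous RNF17 IPs, at 810 and 731 CPM, were below both heterozygous testes, at 1178 and 7779.7 CPM, as held for 24.9% of all genes tested. The levels of the other 6 genes overlapped between heterozygous RNF17 IPs and heterozygous testes. Tnp2 had a log2 fold change of 0.97 (SE 0.79, edgeR adjusted p = 0.529) and Prm3 one of -1.36 (SE 1.03, edgeR adjusted p = 0.497). These values moved with the heterozygous testis library left out. Without replicate 1 they were -3.31 for Tnp1, 0.22 for Tnp2, -1.08 for Prm1, -0.99 for Prm2 and -2.32 for Prm3. Without replicate 2 they were -0.66 for Tnp1, 2.25 for Tnp2, 1.34 for Prm1, 1.22 for Prm2 and 1.18 for Prm3. In such fits the lone testis library was assumed to vary like the IPs.

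Whether the IP to testis ratio differed between genotypes was tested in 1 fit of all 8 libraries. By edgeR 0 of 7 genes and 0% of the 14180 genes tested were called, and its unadjusted p was under 0.05 for Tnp2 alone of the 7. That held for 9.68% of all genes. DESeq2 called none of the 7 and 1.73% of the 14180 genes, but 7698 of these had no adjusted p by DESeq2. The share called among genes with an adjusted p is therefore higher. The log2 difference of ratios, homozygous minus heterozygous, was -3.17 for Tnp2 (SE 1.25, edgeR adjusted p = 0.468) and 2.42 for Prm3 (SE 1.24, edgeR adjusted p = 0.593). For the other 5 genes it lay between -0.13 and 0.77. The Prm3 value was 3.31 when heterozygous testis replicate 1 was left out and -0.27 when heterozygous testis replicate 2 was left out.

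The make-up of the 7 genes' reads differed between genotypes. Homozygous RNF17 IPs held 597 and 816 of these reads, against 43098 and 21887 in heterozygous RNF17 IPs. Prm3 took 32.5% and 44.7% of the 7 genes' reads in homozygous RNF17 IPs, against 3.65% and 6.09% in heterozygous RNF17 IPs. In testis Prm3 took 13.9% and 26.2% in homozygotes, against 3.05% and 6.39% in heterozygotes. H1fnt took 45.4% and 34.4% in homozygous RNF17 IPs, against 9.42% and 13.1% in heterozygous RNF17 IPs. Together the linker histones and Prm3 held most of the remaining reads in homozygotes, whereas protamine and transition protein reads made up most of them in heterozygotes.

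**Figure D3:**
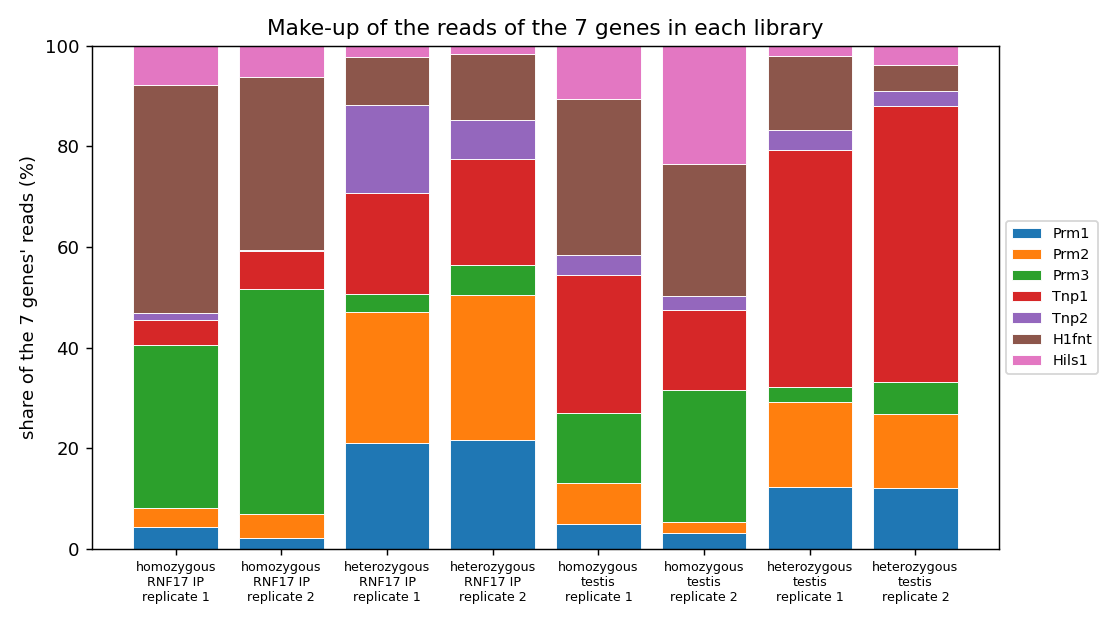
Share of the 7 genes' reads taken by each gene, in percent, in each of the 8 libraries, with homozygous libraries left of heterozygous ones and IPs left of testes. Tnp1 is the largest block in heterozygous testes (47.2% and 55.0%), and H1fnt and Prm3 are the largest blocks in homozygous RNF17 IPs.

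Ratios between the genes within a library do not depend on scaling between libraries. There were 8.82 and 9.12 Prm3 reads per Prm2 read in homozygous RNF17 IPs, against 0.141 and 0.211 in heterozygous RNF17 IPs. The homozygous RNF17 IP ratios rested on 22 and 40 Prm2 reads. In testis the ratio was 1.73 and 11.5 in homozygotes, against 0.18 and 0.439 in heterozygotes. Tnp1 had 0.952 and 0.979 reads per Prm1 read in heterozygous RNF17 IPs, against 3.87 and 4.54 in heterozygous testes. Prm1 and Prm2, by contrast, kept between 0.722 and 0.831 Prm1 reads per Prm2 read in all 4 heterozygous libraries. Summed, the 7 genes took 0.0105% and 0.0111% of gene reads in homozygous RNF17 IPs, against 0.467% and 0.374% in heterozygous RNF17 IPs. In testis they took 0.0202% and 0.0118% in homozygotes, against 0.244% and 1.05% in heterozygotes.

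Levels of different genes were compared per kilobase of the longest annotated transcript. In heterozygous RNF17 IPs, Tnp1 (1853 and 1673 CPM per kilobase) and Prm1 (1813 and 1593) overlapped at the top, followed by Prm2 (1549 and 1482). Tnp2 (1282 and 475.7), Prm3 (359 and 515) and H1fnt (290.2 and 348) came next, and Hils1 was lowest (102 and 67.2). Tnp2 overlapped Prm3, but the ranges of Prm3 and H1fnt did not overlap. In heterozygous testes Tnp1 was highest in each library, at 2696 and 17803 CPM per kilobase, against 649.9 and 3649.8 for Prm1.

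Prm1, Prm2, Prm3 and Tnp2 sit side by side on chromosome 16, and Tnp1, H1fnt and Hils1 lie on chromosomes 1, 15 and 11. The 3 annotated protein-coding genes on each side of the cluster were Dexi, Clec16a and Socs1 before Tnp2 and Rmi2 (A630055G03Rik in the table), Litaf and Snn after Prm1. In RNF17 IP the log2 fold change, homozygous over heterozygous, was -0.32 for Dexi (edgeR adjusted p = 0.535) and -0.31 for Clec16a, a gene linked to autophagy (edgeR adjusted p = 0.284). Snn fell by 1.42 (edgeR adjusted p = 8.53e-03) and Litaf, an endosomal protein, rose by 1.15 (edgeR adjusted p = 7.37e-03). In testis, where edgeR called 0% of all genes and none of the clustered genes, it also called none of the 5 flanking genes it tested. The log2 fold changes of these flanking genes lay between -1.96 for Snn and 0.54 for A630055G03Rik. Socs1 had at most 3 reads in any library and was not tested, and A630055G03Rik was tested in testis alone.

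**Figure D4:**
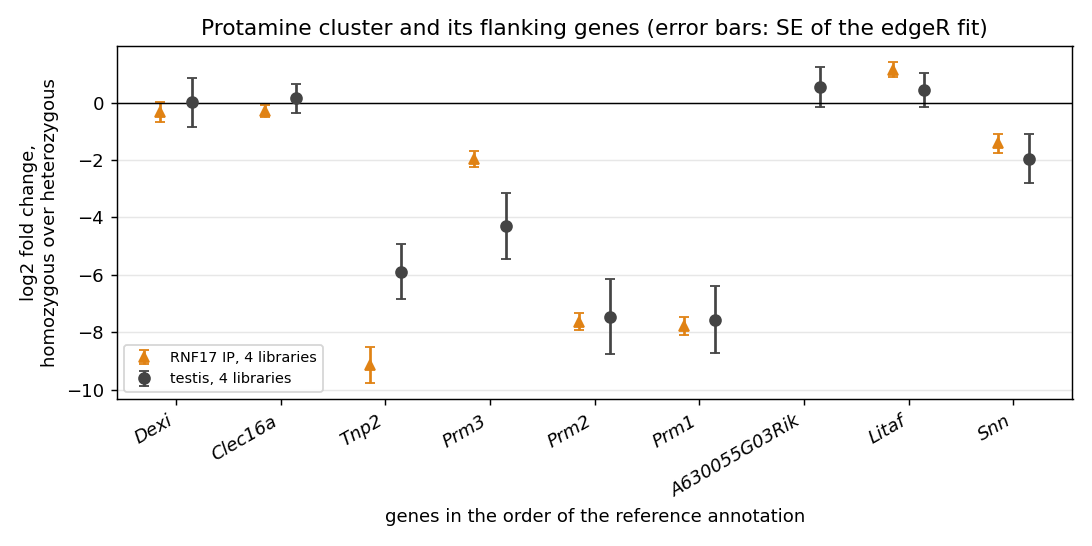
Log2 fold change, homozygous over heterozygous, of the 4 clustered genes and the flanking genes tested, in RNF17 IP (triangles) and in testis (circles). Bars are the SE computed from edgeR's F statistic, and genes stand in annotation order and not to scale. The 4 clustered genes lie below their flanking genes in both kinds of RNA, and Prm3 lies nearest to 0 of the 4.

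Genes that act around the histone exchange were described by lists. Of 17 histone replacement factors, in RNF17 IP 3 fell and 2 rose in homozygotes by edgeR, where 17.7% of all genes tested fell and 12.4% rose, and the list's median log2 fold change was 0.04. Chd5, a chromatin remodeller needed for the exchange, fell by 2.17 on the log2 scale (edgeR adjusted p = 1.30e-05). Cdyl, a chromodomain protein, fell by 2.11 (edgeR adjusted p = 1.95e-05). In testis edgeR called none of the 17 and DESeq2 called 1 lower, Chd5, whose log2 fold change was -2.12 by edgeR. DESeq2 called 4.78% of all genes tested lower there, so 1 of 17 is near that share.

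Of 10 listed histone variants in the table, 3 fell in homozygous RNF17 IP and none rose by edgeR. The 10 were Hist1h1t, Hist1h2ba, Hist1h2aa, H2afb1, H3f3a, H3f3b, H2afx, H2afz, H1f0 and H1fx, and not all are particular to testis. Among all genes tested 17.7% fell and 12.4% rose. The median log2 fold change of the 10 was -0.49. H2afb1, a short H2A variant whose reads could be split with near-identical copies, had 1 and 0 reads in homozygous RNF17 IPs, against 368 and 183 reads in heterozygous RNF17 IPs. Its pooled homozygous level was 0.273% of the heterozygous level (exact 95% interval 0.00691% to 1.53%, counting error only; edgeR adjusted p = 1.97e-06). Hist1h2aa, the testis form of H2A, fell by 2.78 on the log2 scale (edgeR adjusted p = 6.37e-05). Hist1h2ba, its H2B partner, had a log2 fold change of -0.47 (edgeR adjusted p = 0.14).

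Of 8 genes for transcription of protamine genes, 4 fell and 2 rose in homozygous RNF17 IP by edgeR, with a median log2 fold change of -0.52. The shares over all genes tested were 17.7% lower and 12.4% higher. Fhl5, a coactivator of CREM, fell by 4.03 on the log2 scale (edgeR adjusted p = 4.68e-06). Camk4, a calcium-dependent kinase that phosphorylates protamine 2, fell by 2.92 (edgeR adjusted p = 3.57e-05). In testis edgeR called none of the 8 and DESeq2 called 2 lower, Fhl5 (log2 fold change -4.22 by edgeR) and Camk4 (-2.65 by edgeR). Over all genes tested in testis, DESeq2 called 4.78% lower.

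Of 11 tested genes for storage of spermatid mRNA, 3 fell and none rose in homozygous RNF17 IP by edgeR. By edgeR 17.7% of all genes tested fell and 12.4% rose. DESeq2 called 3 of the 11 lower and 2 higher, where it called 26.5% of all genes tested (1959 lower and 1598 higher). The median log2 fold change of the 11 was 0.00 by edgeR. Paip2, a regulator of poly(A)-binding protein, fell by 1.44 on the log2 scale (edgeR adjusted p = 3.81e-04). Piwil1, the PIWI protein of round spermatids, fell by 1.13 (edgeR adjusted p = 1.74e-03). Ybx2, the DNA and RNA binding protein that stores protamine mRNA in mouse, had a log2 fold change of 0.53 (edgeR adjusted p = 0.0815). In testis neither edgeR nor DESeq2 called any of the 11.

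Marker lists of the cell types a testis can hold were described in the same way. Of 15 genes listed as elongating spermatid markers, 14 fell in homozygous RNF17 IP by edgeR, with a median log2 fold change of -3.46. Whether each listed gene is particular to that stage was not tested. For comparison, 17.7% of all genes tested fell in homozygous RNF17 IP and 12.4% rose. The summed level of the 15 markers was 3357 and 3713 CPM in homozygous RNF17 IPs, against 9153 and 9322 CPM in heterozygous RNF17 IPs. Ldhc and Odf2 held most of the sum in homozygous libraries, so the sum there mostly reflects these genes. Ldhc had 1494 and 1651 CPM in homozygous RNF17 IPs, against 1862 and 1699 CPM in heterozygous RNF17 IPs. Odf2 had 1119 and 1267 CPM, against 1843 and 1716 CPM. Ldhc overlapped between genotypes in testis, with 844 and 2236 CPM in homozygotes and 1386 and 2136 CPM in heterozygotes. In testis edgeR called none of the 15 and DESeq2 called 11 lower, where DESeq2 called 4.78% of all genes tested lower. Summed testis levels of the 15 were 3234 and 5724 CPM in homozygotes, against 9429.7 and 29208 CPM in heterozygotes. Of 15 round spermatid markers, 10 fell and 1 rose in homozygous RNF17 IP by edgeR, with a median log2 fold change of -1.25; Acrv1, an acrosomal protein, fell by 2.82 on the log2 scale (edgeR adjusted p = 4.44e-06). In testis edgeR called none of these 15 and DESeq2 called 5 lower, against the same 4.78% of all genes. The median log2 fold change of these 15 in testis was -1.70 by edgeR. Their summed level was 659.6 and 1495 CPM in homozygous testes, against 1296 and 5668 CPM in heterozygous testes, so the groups overlapped.

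Markers of earlier and somatic cells gave 1 lower call in RNF17 IP by edgeR and none by DESeq2. Of 12 spermatocyte markers, 1 fell and 5 rose in homozygous RNF17 IP by edgeR, where 17.7% of all genes tested fell and 12.4% rose. Of 8 tested spermatogonial markers 1 rose, close to the share of all genes that rose. Of 11 Sertoli markers 3 rose, and of 7 tested Leydig markers 3 rose, with none lower in these lists. In testis the summed Sertoli level was 1093 and 1453 CPM in homozygotes, against 514 and 822 CPM in heterozygotes. The summed Leydig level was 680.4 and 830.5 CPM in homozygous testes, against 270.3 and 362 CPM in heterozygous testes. Neither list had a gene called by edgeR in testis. DESeq2 called 1 Sertoli marker higher there, Shbg (DESeq2 adjusted p = 0.0294), and none of the Leydig markers. Over all genes tested in testis, DESeq2 called 25 higher and 685 lower. Tssk6, Nanos3, Shbg and Insl3 were at 0 reads in at least 1 library. The part of these markers in the results on the 7 genes was not tested.

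Over the 8 libraries, the genes whose log2 CPM was most like the mean profile of the 7 genes were Tmsb15a (Pearson r = 0.996), Gsg1 (0.996), 4932411G14Rik (0.994), Aknad1 (0.994) and Tuba8 (0.994), among 8851 genes with at least 10 CPM on average. Each had all 4 homozygous libraries below all 4 heterozygous ones, and the libraries that share a genotype weigh on such a correlation. Of the 7 genes, Prm1 was nearest to their own mean profile (r = 0.994) and Prm3 farthest from it (r = 0.874), with Hils1 at 0.919. A correlation over 0.95 was found for 221 genes.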

How the data were processed

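RNA sequencing of 8 libraries was analysed from the deposited gene table, where the authors deposited unnormalised read counts per gene. STAR, DESeq and build mm9 are named per the submitters' processing notes; versions and counting rules are not given here. Per the labels' protocols, cDNA was primed with not-so-random primers in every library. The authors' deposited table of testis differences holds 4 kinds of value: the normalised signal averaged by genotype, the log2 fold change, its standard error (a score) and p-values, all named per the file headers. It was quoted and not tested again. The 4 testis columns repeated beside the IP columns were identical, so testis libraries served both comparisons.

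Groups came from the sample titles. Each comparison was fitted on the counts with edgeR 4.0.16 in R 4.3.3 (TMM factors, filterByExpr, quasi-likelihood test) and adjusted over all genes tested, with a threshold of 0.05. Differences are homozygous minus heterozygous and IP minus testis. The edgeR test gives no standard error. Each SE was computed as the size of the log2 fold change divided by the square root of the F statistic. Alternatives were DESeq2 1.42.0, RLE factors, total counts, no filter on low counts, a replicate block, and leaving out each library. The procedure was also run on simulated data with the same spread in all groups, unlike the uneven heterozygous testes here. CPM used TMM factors over the 8 libraries. An adjusted p that DESeq2 gave as missing stayed missing. Genes with a missing value were counted as tested and not called in the DESeq2 shares. Promoters are RefSeq windows of 250 bases before and 50 after the start.

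The genes named are the 7 genes, Rnf17, up to 2 called genes per list with the smallest adjusted p or else the gene with the highest level, 3 flanking genes on each side of the cluster, and the 5 genes most like the mean profile (log2 CPM, prior count of 2, at least 10 CPM on average); further genes named from the lists were chosen after their values were seen. The members and lists were chosen with earlier results of these data known. The labels give no batch. Poisson and binomial intervals cover counting error only. Csda and 4931407G18Rik stand for Ybx3 and Cabs1 in the lists, and 3 listed genes (H2afb2, H2afb3 and Rhox5) were not matched.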

Additional observations from a re-analysis of the deposited data

How the results depend on the processing

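In RNF17 IP, all 7 genes were called lower in homozygotes under all 9 alternatives; over all genes edgeR called 4042 (2371 lower, 1671 higher), 3977 with total counts (3145 lower, 832 higher), and between 2069 and 5414 with a library left out. In testis, where edgeR called 0 of 7 and 0 genes in all, DESeq2 called 7 and 710, omitting the filter gave 6 and 361, and leaving out a library gave 5 to 7 and 73 to 1273. For IP over testis in homozygotes (0 and 438), DESeq2 called 1 and 1333, total counts 1 and 1124 (893 lower, 231 higher, against 193 lower and 245 higher), no filter 2 and 1469, and a left-out library 0 to 3 and 89 to 4556. In heterozygotes (0 and 0), DESeq2 called 1 and 603, no filter 0 and 1, and a left-out library 0 to 6 and 11 to 7278. For the difference of ratios (0 and 0), DESeq2 called 245 genes, total counts 10, and a left-out library 0 to 1 of the 7 and 0 to 259 genes.

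Replicate numbers were not taken to pair the samples: no label says what a number shares, there are 2 pairs, and deviations of same-numbered libraries correlated at 0.588 between homozygous and heterozygous testes, -0.119 between homozygous IP and testis, 0.0606 between heterozygous IP and testis and 0.041 between the IPs. With the number as a replicate block, edgeR called 7 of 7 and 943 genes in testis, 1 and 1010 for IP over testis in homozygotes, 0 and 194 in heterozygotes, and 7 of 7 in RNF17 IP. Crossed numbers in homozygotes gave 2 of 7 and 1787 genes.

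The changes of direction were all among values not called with all libraries in the fit. With total counts, IP over testis was -0.12 for H1fnt in homozygotes, and 0.19 for Prm1, 0.23 for Prm2 and 0.070 for H1fnt in heterozygotes, where the block gave 0.17 for Prm1 and 0.15 for Prm2. With total counts, the difference of ratios was -0.43 for Tnp1, -0.19 for H1fnt and -0.21 for Hils1. With a library left out, IP over testis in homozygotes ranged between -1.02 and 0.14 for Prm1, -1.22 and 1.08 for Prm2, and -0.0046 and 0.73 for H1fnt. In heterozygotes it ranged between -1.08 and 1.34 for Prm1, -0.99 and 1.22 for Prm2, -2.32 and 1.18 for Prm3, -0.75 and 0.14 for H1fnt, and -2.91 and 0.43 for Hils1. The difference of ratios ranged between -1.84 and 0.66 for Prm1, -1.62 and 1.24 for Prm2, -0.27 and 3.31 for Prm3, -1.26 and 1.47 for Tnp1, and -1.77 and 1.64 for Hils1. The cause of these changes was not tested. With a library left out, the lone library of its group was assumed to vary like the other groups. Counts of calls from such fits are therefore not comparable with those of the full fits. Tnp2 and H2afb1 in homozygous RNF17 IPs rest on 10 reads and 1 read in all.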
